A study of Drosophila melanogaster with 8 samples.

Results

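The genes described here are 10 receptors for biogenic amines of Drosophila melanogaster: 5 for serotonin (5-HT1A, 5-HT1B, 5-HT2A, 5-HT2B and 5-HT7), 4 for dopamine (Dop1R1, Dop1R2, Dop2R and DopEcR) and 1 for octopamine (Oamb). They were taken by gene symbol, with no threshold on a measured value, and are 10 of the 16727 genes in the tables, with 35 of the 35411 transcripts. Poly(A) RNA of fly heads was sequenced in 8 libraries, 2 for each combination of genotype and time. The wild-type label gives the strain w1118, and the mutant carries vriΔ679 (written vri679), an allele of vrille, a transcriptional repressor of the circadian clock. Flies were entrained for 3 days to 12 h of light and 12 h of darkness at 25 °C and collected on the next day at ZT2, 2 h after lights-on, or at ZT14, 2 h after lights-off. Age, sex, and any allele by which the stocks differ apart from vri are not stated, so a difference between genotypes cannot be told apart from one between stocks. The labels do not say whether replicate libraries stem from separate cultures, so p-values measure the spread between these samples.

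All 10 genes encode receptors that act through G proteins. Serotonin receptors of the 5-HT1 type lower cyclic AMP, 5-HT7 raises it, and the 5-HT2 type acts through phospholipase C and calcium. In flies, Dop1R1 and Dop1R2 act in mushroom body neurons in the formation and loss of olfactory memories, Dop2R is the D2-like inhibitory receptor and also an autoreceptor, DopEcR answers both dopamine and the steroid ecdysone, and Oamb mediates octopamine signals in mushroom body, oviduct and other tissues. Amines and their receptors take part in sleep, arousal, feeding and responses to light, all of which vary over the day. The comparisons here ask whether transcript levels of these receptors differed between times of day and between the genotypes. In bulk RNA of heads, fewer cells of a type and less RNA per cell cannot be told apart.

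Levels are FPKM (fragments per kilobase of transcript, relative to all mapped reads), summed over the transcripts of a gene and scaled between libraries. Depth was 49.3 to 65.4 M mapped reads per library. FPKM is set per length, so a comparison of levels between genes rests on the transcript lengths assigned. It is also open to any trend with length within a library, such as the one given below. Estimated reads per receptor gene and library ranged from 612, for 5-HT2B in its lowest library, to 27512, for DopEcR in its highest. vri itself stood at 10.1 and 10.7 FPKM in wild-type ZT2, 85.9 and 72.6 in wild-type ZT14, 3.64 and 4.28 in vri679 ZT2, and 21.8 and 40.6 in vri679 ZT14, so both mutant groups lay below the wild type at the same time. One library stood apart. Replicate 1 of vri679 ZT14 held less of long transcripts than replicate 2, with a median log2 difference of −0.42 over 995 genes of 4 to 6 kb and 0.41 over 2151 genes under 1 kb. Its neuron markers (6 genes, all tested) summed to 846 FPKM against 1310 to 1480 in the other 7 libraries. Not all 6 were low in it: elav read 18.4 FPKM against 17.7 to 26.0 elsewhere, and Syx1A 54.6 against 42.0 to 59.5. brp, which encodes a protein of the presynaptic active zone and has a mean transcript length of 9030 nt, was at 2.70 FPKM there against 15.4 to 26.3 elsewhere. None of the neuron or mushroom body markers was at 0 in any library.

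All 10 receptor genes were detected in every library. DopEcR was the most abundant, at a mean of 82.6 FPKM over the 8 libraries, above 89.7% of the 10122 genes tested. 5-HT2A followed at 34.3, and Oamb at 15.7, close to the middle of all genes, since 52.9% of them lay below it. The next were 5-HT1A (11.7), 5-HT1B (8.09), Dop1R2 (6.86), Dop2R (6.65), 5-HT7 (5.01), Dop1R1 (3.96) and 5-HT2B (2.81), the last above 14.3% of the genes tested. Each of the 9 neighbouring pairs in this order was compared within libraries by a two-sided exact permutation test that flips the sign of the log2 difference in each library, with Benjamini-Hochberg adjustment over the 9 pairs. In 8 of 9 pairs the order was the same in all 8 libraries (exact permutation test, p = 0.00781, the smallest it can give, adjusted p = 0.00879). Dop1R2 and Dop2R could not be ordered: Dop1R2 was higher in 5 of 8 libraries, by 0.04 ± 0.08 (SD, n = 8) on the log2 scale (exact permutation test, p = 0.219, adjusted p = 0.219). The narrowest of the other gaps was that between 5-HT1B and Dop1R2, 0.22 ± 0.15. The order was chosen from the same libraries, so the tests describe how steady it was. With each library's trend on transcript length removed, as described further on, Dop1R1 (4.66 FPKM) lay above 5-HT7 (4.46) in replicate 1 of vri679 ZT14, which turns the order of that pair in 1 library.

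**Figure D1:**
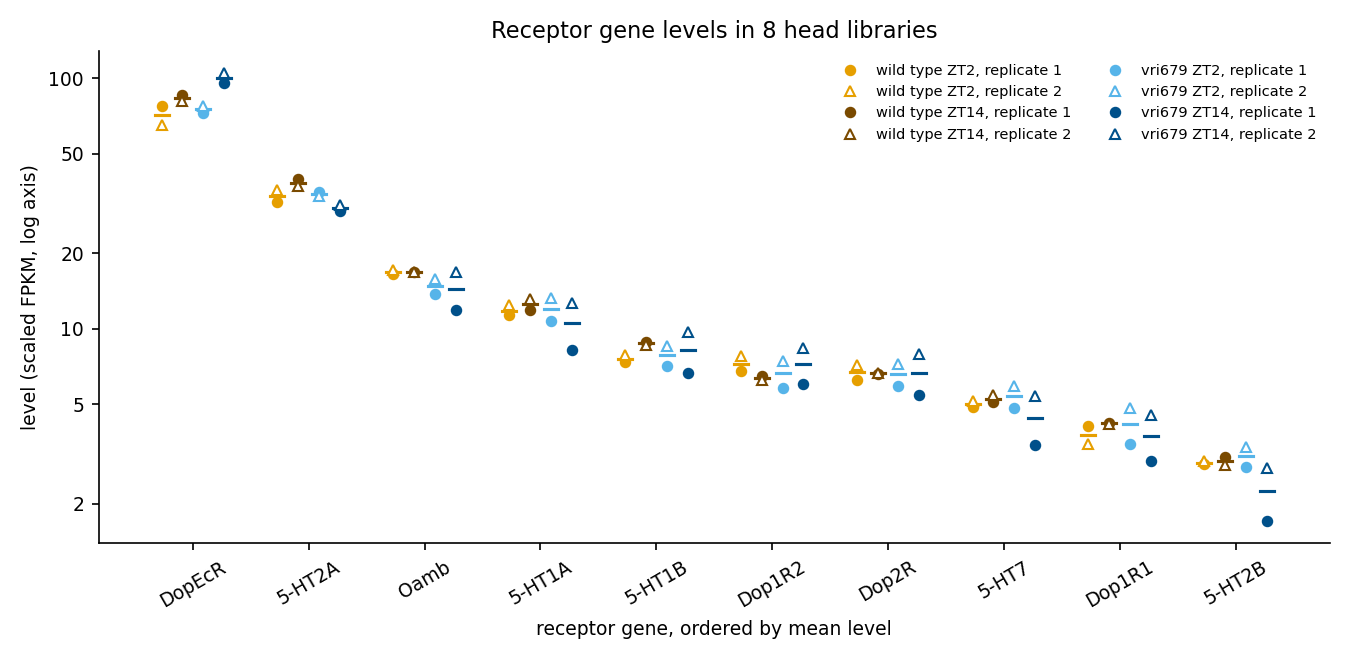
Level of each receptor gene (scaled FPKM, log axis) in 8 libraries, coloured by group, with filled circles for replicate 1, open triangles for replicate 2 and a bar at the group mean. DopEcR lies between 65.3 and 105 and 5-HT2B between 1.71 and 3.38; the filled vri679 ZT14 circle is the lowest point for 8 of the 10 genes.

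A single gene made up most of the signal in each family. 5-HT2A gave 50.6% to 59.6% of the summed FPKM of the 5 serotonin receptors, and DopEcR gave 78.0% to 87.0% of that of the 4 dopamine receptors. The serotonin receptors summed to 58.4 and 64.0 FPKM in wild-type ZT2, 68.4 and 67.1 in wild-type ZT14, 60.7 and 65.0 in vri679 ZT2, and 49.6 and 61.9 in vri679 ZT14. The dopamine receptors summed to 94.5 and 83.6, 103 and 98.5, 87.8 and 97.4, and 110 and 126 FPKM in the same order. The lowest serotonin sum and the highest dopamine sums thus fell in the same group, vri679 ZT14, the latter through DopEcR.

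Of the 10 receptor genes, 0 passed the test in any of the 6 comparisons (limma on log2(scaled FPKM + 0.5), Benjamini-Hochberg adjusted p under 0.05 over 10122 genes). Differences are given on that log2 scale, which understates those of low genes. Among all genes tested 22.3% were called between genotypes at ZT14, 2.88% between genotypes at ZT2, and 14.1% for the genotype difference averaged over both times. Between times 6.63% were called in wild type and 9.97% in vri679, and 8.25% for genotype by time, that is, for the change of the time effect from wild type to mutant. At an unadjusted p under 0.05, 1 receptor gene passed for genotype at ZT14 (38.8% of all genes did), 1 for time in vri679 (31.0% of all genes), and 0 in the other 4 comparisons. The receptors' standard errors ran from 0.11 to 0.22 in each comparison between single groups, around the median of 0.16 over all genes. They come from 1 spread per gene shared by all groups, so they do not measure the spread at ZT14 alone. In every comparison between single groups, the 95% intervals of all 10 genes lay within a 2-fold change in either direction. The widest lower bound was 0.54-fold, for 5-HT2B between times in vri679, and the widest upper bound 1.64-fold, for DopEcR in the same comparison. For genotype by time 7 of 10 intervals lay within 2-fold. The test did not show that the levels were equal. The intervals bound how far apart they were only if all groups share the same spread. Replicates of vri679 ZT14 differed most (median absolute log2 difference over all genes 0.32, elsewhere 0.10 to 0.13). Intervals of comparisons with that group may therefore be too narrow.

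**Figure D2:**
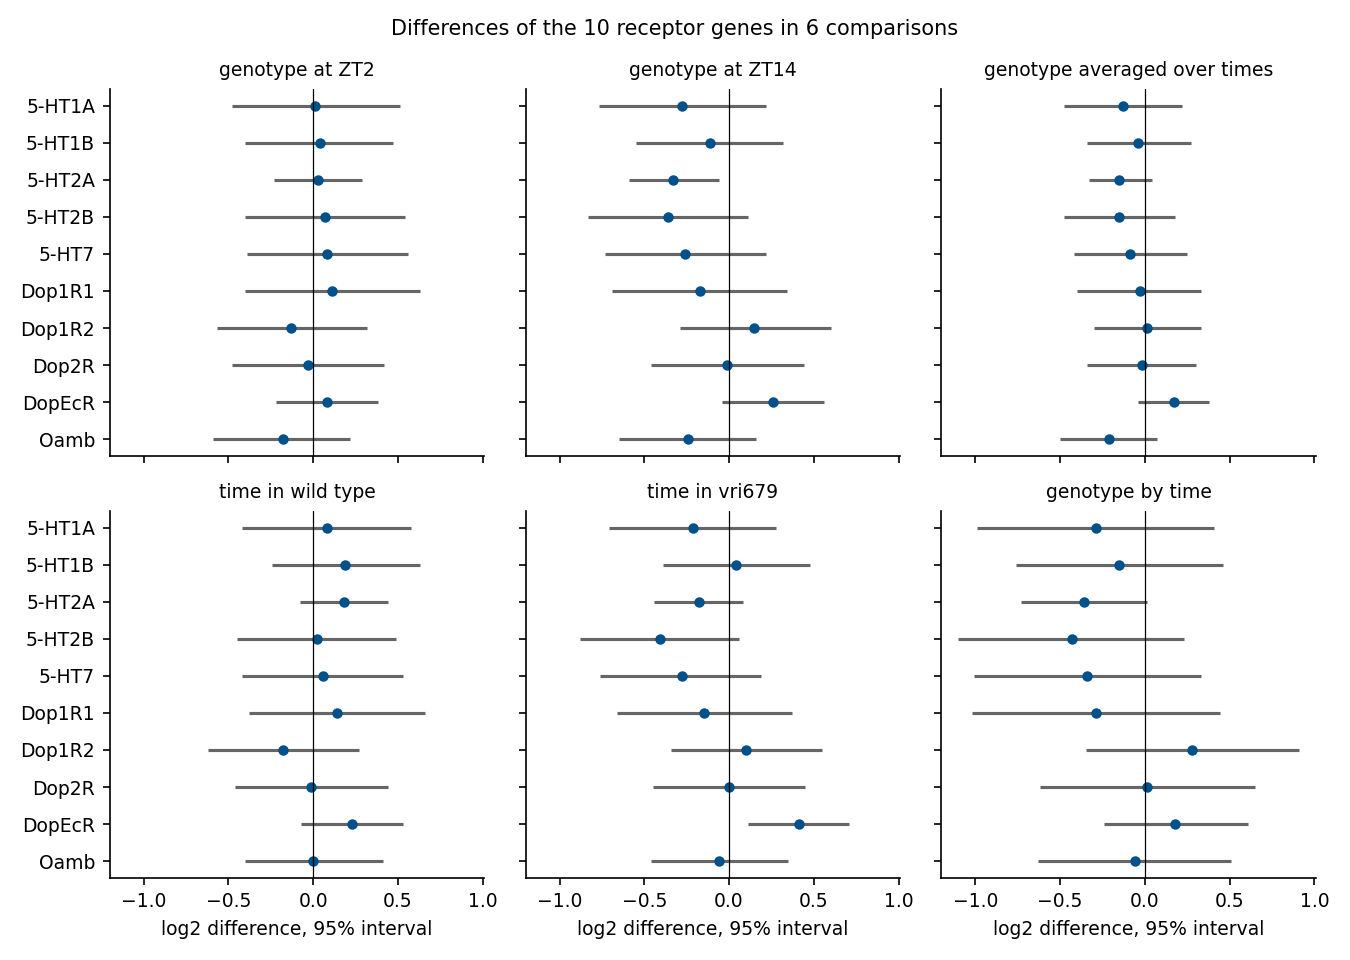
Log2 difference (point) and 95% interval (line) of each receptor gene in the 6 comparisons; genotype is vri679 minus wild type and time is ZT14 minus ZT2. Intervals exclude 0 only for 5-HT2A between genotypes at ZT14 (−0.59 to −0.06) and DopEcR between times in vri679 (0.11 to 0.71), and neither passed the adjusted threshold.

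Among the serotonin receptors of the 5-HT2 type, 5-HT2A (FBgn0087012, chr3R:4612870-4633304, dm6) came closest to a genotype difference. Its levels in FPKM were 32.0 and 35.7 in wild-type ZT2, 39.5 and 37.0 in wild-type ZT14, 35.2 and 33.9 in vri679 ZT2, and 29.6 and 31.3 in vri679 ZT14. Both vri679 ZT14 libraries were the lowest of the 8, and both wild-type ZT14 libraries the highest. At ZT14 the difference between genotypes was −0.33 (SE 0.11, limma adjusted p = 0.076), against 0.03 (SE 0.11, adjusted p = 0.945) at ZT2. The test of the change between those differences, genotype by time, gave −0.36 (SE 0.16, adjusted p = 0.198). Replicates of vri679 ZT14 differed by only −0.08 for this gene, while genes of 3 to 4 kb, its length class, had a median of −0.25. With the length trend removed from each library, as described further on, the ZT14 difference was −0.14 (adjusted p = 0.344).

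5-HT2B (FBgn0261929, chr3R:8578205-8629996) was the lowest of the 10. Its levels were 2.88 and 2.96 in wild-type ZT2, 3.08 and 2.86 in wild-type ZT14, 2.81 and 3.38 in vri679 ZT2, and 1.71 and 2.78 FPKM in vri679 ZT14. A single library was low, and the other 7 lay between 2.78 and 3.38. The differences were −0.36 (SE 0.20, limma adjusted p = 0.218) between genotypes at ZT14 and −0.41 (SE 0.20, adjusted p = 0.204) between times in vri679.

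Of the receptors that lower cyclic AMP, 5-HT1A (FBgn0004168, chr2R:19067155-19121958) stood at 11.3 and 12.4 FPKM in wild-type ZT2, 11.9 and 13.2 in wild-type ZT14, 10.7 and 13.3 in vri679 ZT2, and 8.22 and 12.7 in vri679 ZT14. 5-HT1B (FBgn0263116, chr2R:19022325-19032642) had 7.33 and 7.86, 8.86 and 8.62, 7.12 and 8.55, and 6.66 and 9.71 FPKM in the same order. The genes are neighbours on opposite strands, with 34512 bases and 3 other genes between them. For both, the lowest library was replicate 1 of vri679 ZT14, and the groups overlapped between genotypes at each time. Between genotypes at ZT14 the differences were −0.28 (SE 0.21, limma adjusted p = 0.355) for 5-HT1A and −0.11 (SE 0.18, adjusted p = 0.67) for 5-HT1B. In wild type 5-HT1B differed by 0.19 (SE 0.18, adjusted p = 0.676) between times, with both ZT14 libraries above both ZT2 libraries.

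5-HT7 (FBgn0004573, chr3R:30968236-31016875), which raises cyclic AMP, stood at 4.87 and 5.16 FPKM in wild-type ZT2, 5.08 and 5.41 in wild-type ZT14, 4.82 and 5.92 in vri679 ZT2, and 3.43 and 5.37 in vri679 ZT14. Apart from 1 library it held to a narrow range, 1.23-fold from lowest to highest. Between genotypes at ZT14 the difference was −0.26 (SE 0.20, limma adjusted p = 0.37).

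DopEcR (FBgn0035538, chr3L:4367649-4380387) was the dopamine receptor with the clearest pattern. It stood at 77.4 and 65.3 FPKM in wild-type ZT2, 85.7 and 81.4 in wild-type ZT14, 72.6 and 77.9 in vri679 ZT2, and 95.7 and 105 in vri679 ZT14. The groups did not overlap between times in either genotype, with ZT14 above ZT2, and at ZT14 both mutant libraries lay above both wild-type libraries. The time difference was 0.41 (SE 0.13, limma adjusted p = 0.084) in vri679 and 0.23 (SE 0.13, adjusted p = 0.395) in wild type. The genotype difference at ZT14 was 0.26 (SE 0.13, adjusted p = 0.174), and genotype by time 0.18 (SE 0.18, adjusted p = 0.538). For the levels as scaled, DopEcR alone among the 10 genes had its highest levels in both vri679 ZT14 libraries. With the length trend removed, as described further on, this also held for 5-HT1B, Dop1R1, Dop1R2 and Dop2R.

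Dop1R2 (FBgn0266137, chr3R:29630304-29659984) had 6.76 and 7.76 FPKM in wild-type ZT2, 6.47 and 6.22 in wild-type ZT14, 5.82 and 7.45 in vri679 ZT2, and 5.99 and 8.41 in vri679 ZT14. In wild type both ZT14 libraries lay below both ZT2 libraries (difference −0.18, SE 0.19, limma adjusted p = 0.713), while the mutant groups overlapped. The D1-like receptor Dop1R1 (FBgn0011582, chr3R:14165379-14214810) had 4.07 and 3.47, 4.20 and 4.18, 3.47 and 4.84, and 2.95 and 4.52 FPKM in the same order of groups. The D2-like Dop2R (FBgn0053517, chrX:20004680-20062706) had 6.25 and 7.14, 6.62 and 6.65, 5.93 and 7.24, and 5.41 and 7.95. For Dop1R1 and Dop2R the lowest library was replicate 1 of vri679 ZT14. Between genotypes at ZT14 the difference of Dop1R1 was −0.17 (SE 0.22, adjusted p = 0.578), that of Dop2R −0.01 (SE 0.19, adjusted p = 0.964) and that of Dop1R2 0.15 (SE 0.19, adjusted p = 0.571).

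Oamb (FBgn0024944, chr3R:20689018-20714577) was the steadiest gene in wild type, at 16.5 and 17.1 FPKM at ZT2 and 16.8 and 16.9 at ZT14. In vri679 it stood at 13.8 and 15.8 at ZT2 and at 11.9 and 16.9 at ZT14. The mutant ZT2 libraries lay below both wild-type ZT2 libraries, by −0.18 (SE 0.17, limma adjusted p = 0.725). Averaged over both times the genotype difference was −0.21 (SE 0.12, adjusted p = 0.283), the most negative of the 10 genes. Between times in wild type Oamb differed by 0.00, with a 95% interval of −0.40 to 0.41.

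With 2 libraries a group, groups that do not overlap are common. This held for 1 receptor gene between genotypes at ZT2 (57.7% of all genes tested), 3 at ZT14 (63.2%), 5 between times in wild type (63.0%) and 3 in vri679 (56.3%). For the levels as scaled, these counts lie below the shares of all genes. With the length trend removed, as described further on, groups also lay apart at ZT14 for 5-HT1B, Dop1R1, Dop1R2 and Dop2R. The share of all genes was not computed in that setting, so these cannot be set against a background.

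The members' values turned on a single library. Replicate 1 of vri679 ZT14 was the lowest of the 8 libraries for 8 of 10 receptor genes, the exceptions being Dop1R2 and DopEcR. Of the 1923 tested genes with mean transcript lengths in the receptors' range, 3560 to 14426 nt, 69.8% were lowest in that library, against 28.0% of all genes tested. Its difference from replicate 2 lay between −0.46 and −0.60 for 8 genes, and was −0.08 for 5-HT2A and −0.13 for DopEcR. The receptors' median difference without sign between replicates was 0.51 there, against 0.14 in wild-type ZT2, 0.06 in wild-type ZT14 and 0.26 in vri679 ZT2.

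**Figure D3:**
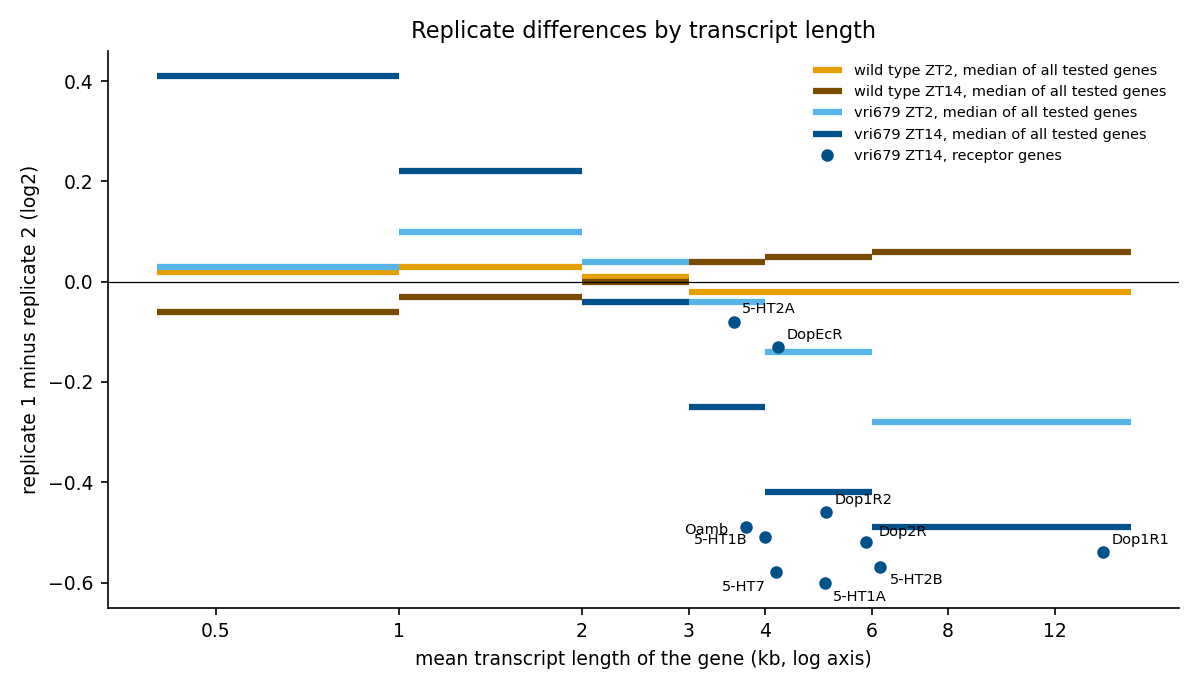
Log2 level in replicate 1 minus replicate 2 against mean transcript length (kb, log axis), as bars for the median of all tested genes in each length class and group, and points for the 10 receptor genes in vri679 ZT14. In vri679 ZT14 the medians run from 0.41 under 1 kb to −0.49 over 6 kb, against −0.06 to 0.06 in both wild-type groups, and 8 receptor genes lie between −0.46 and −0.60.

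Leaving out either library of vri679 ZT14 gave different answers. Without replicate 2, so that replicate 1 stood alone for its group, 5 receptor genes were called lower in vri679 at ZT14: 5-HT2B (−0.64, limma adjusted p = 0.0134), 5-HT1A (−0.57, adjusted p = 0.0221), 5-HT7 (−0.54, adjusted p = 0.023), Oamb (−0.48, adjusted p = 0.0134) and 5-HT2A (−0.35, adjusted p = 0.0328). In that fit 51.6% of all genes were called, so 5 of 10 is near the background. Between times in vri679, 5-HT2B, 5-HT7 and 1 other, 5-HT1A, were called lower (45.7% of all genes called). For genotype by time 5-HT2B and 5-HT7 were called (41.6% of all genes), and Oamb for the averaged genotype difference (40.6% of all genes). Without replicate 1 no receptor gene was called, and at ZT14 the genotype difference was 0.02 for 5-HT1A, 0.03 for 5-HT7, 0.00 for Oamb and −0.08 for 5-HT2B. Over the 8 fits that left out a library, 5-HT2A stayed between −0.28 and −0.37 at ZT14 and DopEcR between 0.21 and 0.33.

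To see the members apart from this length trend, a smooth curve of each library's log2 deviation on transcript length was removed before the fit. This setting was chosen after seeing the data. The share of all genes whose groups did not overlap was not computed in it. At ZT14 the genotypes then overlapped for 5-HT1A, 5-HT7 and Oamb: in FPKM, 5-HT1A read 10.9 and 12.5 without and 11.0 and 12.4 with the vri allele, Oamb 15.8 and 16.3 against 14.6 and 16.6, and 5-HT7 4.69 and 5.18 against 4.46 and 5.25. The mutant libraries lay lower for 5-HT2A (37.3 and 35.9 against 35.7 and 30.8) and 5-HT2B (2.77 and 2.70 against 2.52 and 2.67). They lay higher for 5-HT1B (8.25 and 8.29 against 8.44 and 9.51), Dop1R1 (3.74 and 3.97 against 4.66 and 4.23) and the other dopamine receptors. Dop1R2 had 5.91 in both wild-type libraries and 8.08 and 8.18 in the mutant ones, DopEcR 79.7 and 78.2 against 121 and 103, and Dop2R 6.0 and 6.32 against 7.52 and 7.68.

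Between genotypes at ZT14 Dop1R2 (0.43, SE 0.10, limma adjusted p = 0.0217) and DopEcR (0.50, SE 0.12, adjusted p = 0.0254) were called higher in vri679 in this setting, in which 29.3% of all genes were called. Dop2R (0.28, SE 0.09, adjusted p = 0.059), Dop1R1 (0.18, SE 0.11, adjusted p = 0.256) and the other 6 were not. Dopamine receptors were not tested against serotonin receptors. As scaled, DopEcR followed the trend less than its length class: its vri679 ZT14 replicates differed by −0.13, against a class median of −0.42. Removal of the trend moved its replicate 1 there from 95.7 to 121 FPKM and its replicate 2 from 105 to 103. DopEcR was also called between times in vri679 (0.62, adjusted p = 0.021, 17.6% of all genes called), and Dop1R2 for genotype by time (0.59, adjusted p = 0.0381, 15.0% of all genes called). With each library left out in turn as well, the ZT14 calls held in 6 of 8 fits for Dop1R2, lost without either wild-type ZT14 library (adjusted p up to 0.105), and in 5 of 8 for DopEcR, lost without either wild-type ZT14 library or replicate 1 of vri679 ZT14 (adjusted p up to 0.115). Over these fits the ZT14 difference ran from 0.42 to 0.44 for Dop1R2 and from 0.38 to 0.62 for DopEcR. The DopEcR call between times was lost without either vri679 ZT2 library or replicate 1 of vri679 ZT14 (adjusted p up to 0.0984), and the Dop1R2 call for genotype by time was lost in 6 of 8 fits, each of those that left out a library other than the vri679 ZT14 pair (adjusted p up to 0.132). Whether the length trend has a technical source or reflects a difference between the samples was not tested.

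**Figure D4:**
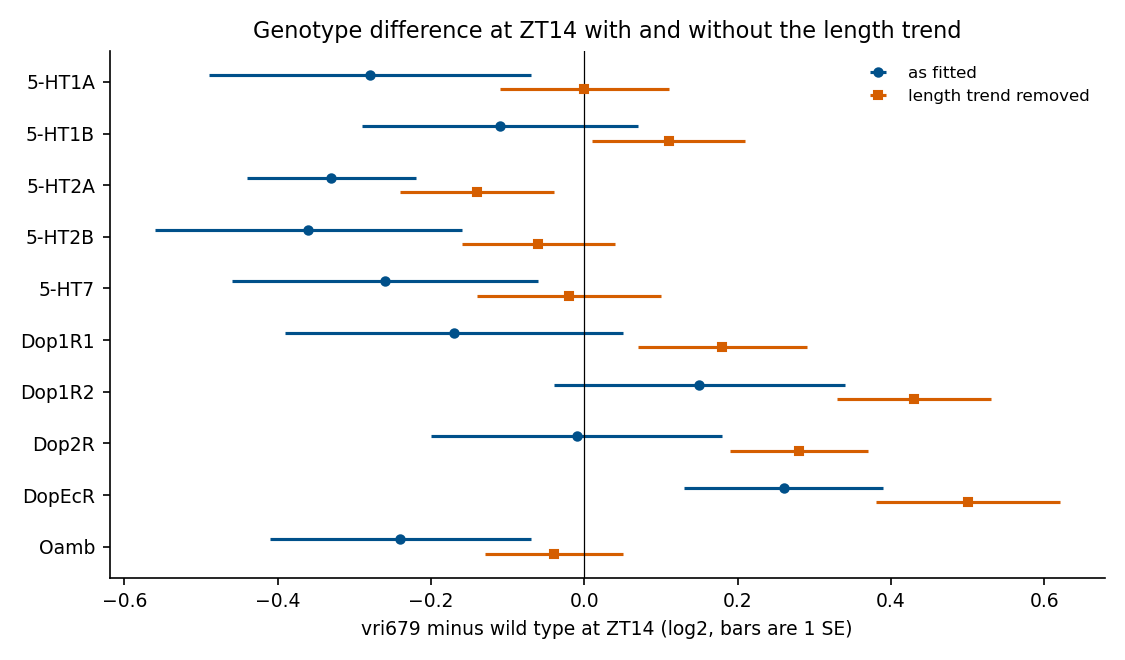
Genotype difference at ZT14 (vri679 minus wild type, log2, bars of 1 SE) as fitted (circles) and with each library's length trend removed (squares). The squares lie to the right of the circles for all 10 genes; Dop1R2 moves from 0.15 to 0.43 and DopEcR from 0.26 to 0.50, while 5-HT1A moves from −0.28 to 0.00.

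The 35 transcripts arise from 13 start sites (5′ ends within 50 bases were joined), and 3 genes have more than 1. No start site or transcript was called in any comparison: 12 start sites and 24 transcripts of the receptors were tested, with smallest adjusted p-values of 0.197 and 0.186 (limma). Among all 13051 start sites tested, 1.13% were called between genotypes at ZT2, 9.14% at ZT14 and 5.19% on average, 2.08% and 3.05% between times in wild type and vri679, and 2.62% for genotype by time. Among 18982 transcripts the shares were 0.738%, 4.75%, 3.06%, 1.12%, 2.39% and 1.91% in the same order. At an unadjusted p under 0.05, 0 of 72 start-site tests and 4 of 144 transcript tests of the receptors passed. The division of reads among transcripts that share most of their sequence is an estimate of StringTie, so it is less certain than the gene sums.

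DopEcR has start sites at positions 4380387 and 4379599 of chromosome 3L on the minus strand. The upstream one, which leads to DopEcR-RB and the rare DopEcR-RA, had 68.2 and 56.6 FPKM in wild-type ZT2, 66.8 and 70.0 in wild-type ZT14, 66.3 and 70.6 in vri679 ZT2, and 61.3 and 96.2 in vri679 ZT14. The downstream one, of DopEcR-RC, had 9.15 and 8.68, 18.9 and 11.4, 6.26 and 7.35, and 34.4 and 8.72 FPKM. Both encode the same protein of 322 residues. The downstream share was 36.0% in replicate 1 of vri679 ZT14 and 8.31% to 22.0% in the other 7 libraries. In replicate 1 of vri679 ZT14 the downstream site was the highest of the 8 libraries and the upstream site second lowest, while in replicate 2 the upstream site was the highest. The downstream start differed by 1.30 (SE 0.63, limma adjusted p = 0.274) between times in vri679.

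5-HT2A showed a like split. Its start site at position 4612870 of chromosome 3R, on the plus strand, had 20.2 and 23.6 FPKM in wild-type ZT2, 29.0 and 26.7 in wild-type ZT14, 22.6 and 25.0 in vri679 ZT2, and 15.0 and 24.0 in vri679 ZT14. The start at 4619253, of 5-HT2A-RF, had 11.8 and 12.1, 10.5 and 10.4, 12.6 and 8.85, and 14.6 and 7.26 FPKM. The downstream share was 49.4% in replicate 1 of vri679 ZT14 against 23.2% to 37.0% elsewhere. As StringTie divided the reads, the 5-HT2A level at ZT14 was lower in vri679 at the upstream site in replicate 1. In replicate 2 it was lower at both sites, to a smaller extent. That division is an estimate, and neither site was called. The upstream site differed by −0.54 (SE 0.23, limma adjusted p = 0.197) between genotypes at ZT14.

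**Figure D5:**
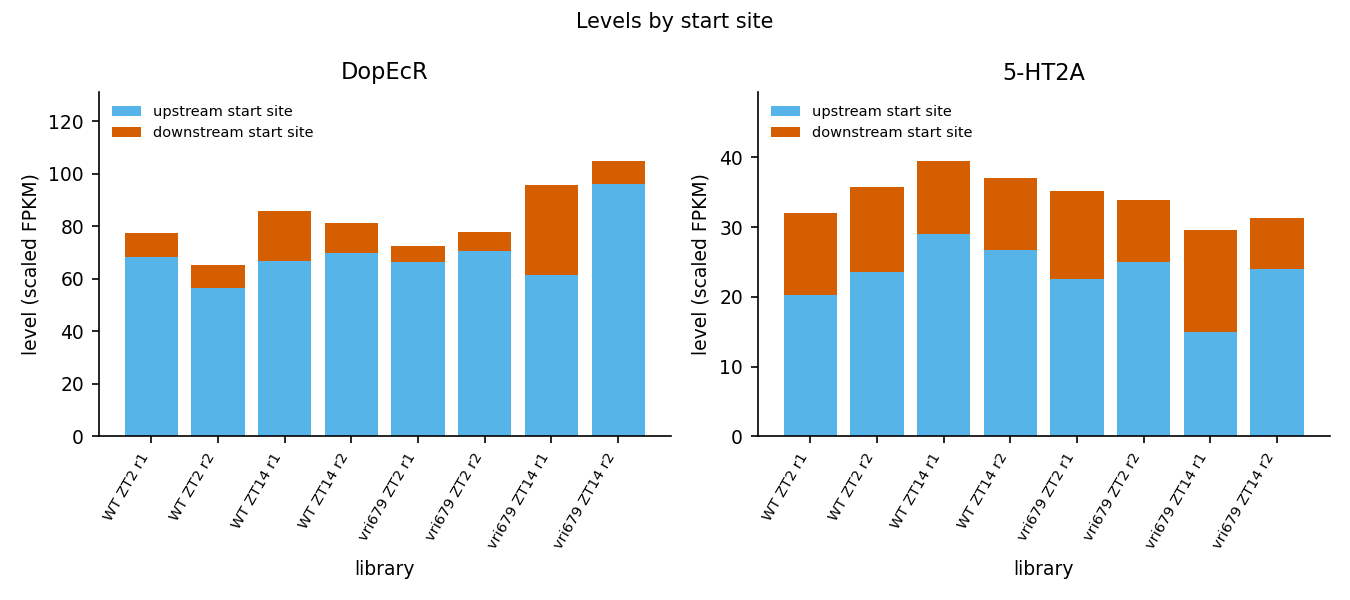
Level (scaled FPKM) of the upstream (blue) and downstream (orange) start sites of DopEcR and 5-HT2A in each of the 8 libraries, stacked so that the bar height is the gene level. The orange part is largest in vri679 ZT14 replicate 1 for both genes, 34.4 FPKM for DopEcR and 14.6 for 5-HT2A.

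Several receptors were almost wholly of a single transcript. Dop1R1-RD, of 14565 nt with 12541 bases after its coding region, gave 98.8% of the Dop1R1 level. 5-HT1B-RE gave 98.1% of 5-HT1B and 5-HT2B-RF, of 6333 nt, 93.4% of 5-HT2B. 5-HT1A is listed with 1 transcript, which matches 5-HT1A-RB and 5-HT1A-RC. Dop2R was drawn almost entirely from its start at 20062706 of chromosome X, whose level was 5.40 to 7.94 FPKM, while that at 20013794 reached 0.0377 at most. Dop2R-RH gave 46.4% of the Dop2R level and Dop2R-RI 38.9%. The most abundant Dop1R2 transcript gave 40.2%, and the most abundant Oamb transcript, which shares its exons with a second entry, 23.6%.

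5-HT7 has a pair of transcripts that encode the same 564 residues and differ after the coding region, 742 bases in 5-HT7-RA and 1648 in 5-HT7-RB. 5-HT7-RA had 2.29 and 1.46 FPKM in wild-type ZT2, 1.12 and 2.62 in wild-type ZT14, 1.75 and 2.92 in vri679 ZT2, and 0.0719 and 0.744 in vri679 ZT14, where both libraries were lower than any other. It differed by −1.72 (SE 0.54, limma adjusted p = 0.186) between times in vri679 and by −1.41 (SE 0.54, adjusted p = 0.209) between genotypes at ZT14. 5-HT7-RB had 3.36 and 4.63 FPKM in vri679 ZT14 and 2.59 to 3.96 elsewhere.

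Genes that make, carry or modify the amines were read in the same fit. Of these 13 genes of monoamine synthesis, transport and modification, 0 were called higher and 4 lower in vri679 at ZT14. In that comparison 22.3% of all genes were called. The median difference of the 13 was −0.39, against −0.01 over all genes tested and −0.21 over the receptors. Pu, which encodes GTP cyclohydrolase I of tetrahydrobiopterin synthesis, read 1370 and 1760 in wild-type ZT14 against 617 and 711 FPKM in vri679 ZT14 (−1.23, SE 0.17, limma adjusted p = 0.00464), and this call held with any library left out (adjusted p up to 0.0443). The arylalkylamine N-acetyltransferase gene listed as Dat had 190 and 212 FPKM against 112 and 91.7 (−0.98, SE 0.16, adjusted p = 0.00734), and the call was lost without replicate 2 of wild-type ZT14 (adjusted p = 0.0638). ebony (e), which couples β-alanine to dopamine, had 21.2 and 25.9 FPKM against 13.1 and 10.2 (−0.99, SE 0.22, adjusted p = 0.0234). The tyrosine hydroxylase gene ple, the first step of dopamine synthesis, had 54.4 and 66.7 FPKM against 24.4 and 39.4 (−0.95, SE 0.23, adjusted p = 0.0279). The call of e was lost without either wild-type ZT14 library (adjusted p up to 0.14) and that of ple when any 1 of the 4 wild-type libraries was left out (adjusted p up to 0.156) or library totals were made equal.

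Between times in vri679, 4 of the 13 genes were called lower at ZT14 and 0 higher, with 9.97% of all genes called: tan (t), which releases dopamine from its β-alanine conjugate (−1.36, SE 0.18, limma adjusted p = 0.00794), ple (−1.43, SE 0.23, adjusted p = 0.0141), Dat (−0.91, SE 0.16, adjusted p = 0.0178) and e (−1.24, SE 0.22, adjusted p = 0.0203). These calls were lost without replicate 1 of vri679 ZT2 for t, replicate 2 for e, and either for ple and Dat (adjusted p up to 0.107), and all 4 were lost when only the groups compared were fitted. In wild type t (−1.01, SE 0.18, adjusted p = 0.0219) and e (−1.16, SE 0.22, adjusted p = 0.0289) were lower at ZT14 and Pu higher (1.04, SE 0.17, adjusted p = 0.0169); the calls of t and e were lost when any 1 of the 4 wild-type libraries was left out, and that of Pu without either ZT2 library or replicate 2 of ZT14 (adjusted p up to 0.178). For genotype by time Pu and Dat were called lower, as given in the closing section. Averaged over both times e (−0.95, SE 0.16, adjusted p = 0.0123) and Pu (−0.71, SE 0.12, adjusted p = 0.0135) were lower in vri679; e was lost without replicate 1 of wild-type ZT2 or replicate 2 of wild-type ZT14, and Pu without either wild-type ZT2 library, replicate 2 of wild-type ZT14 or replicate 1 of vri679 ZT2 (adjusted p up to 0.0648).

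Of 7 other amine receptor genes, the tyramine receptor gene TyrRII was called lower in vri679 at ZT14 (−0.56, SE 0.15, limma adjusted p = 0.0382) and higher at ZT14 than at ZT2 in wild type (0.80, SE 0.15, adjusted p = 0.0264), and no other was called in any comparison. That is 1 of 7 in each, with 22.3% and 6.63% of all genes called. TyrRII stood at 3.58 and 2.82 FPKM in wild-type ZT14 and at 1.58 to 2.18 in the other 6 libraries. Its calls were lost in 7 and 6 of the 8 fits that left out a library, the former holding only without replicate 2 of vri679 ZT14 and the latter only in the 2 fits that left out a vri679 ZT14 library (adjusted p up to 0.211). Of 18 genes of signal transduction below the receptors, Gprk1, a kinase of activated G protein-coupled receptors, was called higher in vri679 at ZT14 (0.51, SE 0.13, adjusted p = 0.0373) and on average (0.36, SE 0.09, adjusted p = 0.0471), and no other was called in any comparison. Gprk1 had 56.7 and 63.8 FPKM in vri679 ZT14 and 38.5 to 50.3 elsewhere, and both calls held only in the 2 fits that left out a vri679 ZT14 library (adjusted p up to 0.208). The calls of TyrRII and Gprk1 were also lost with library totals made equal. The median of these 18 genes between genotypes at ZT14 was −0.32.

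Markers of cell types were read in the same libraries. None of 6 neuron and 5 mushroom body markers was called by limma in any comparison (at an unadjusted p under 0.05, at most 2 neuron and 1 mushroom body markers in a comparison), with medians of −0.34 and 0.06 between genotypes at ZT14. The following marker calls stand beside 22.3% of all genes called. Of 7 glial markers 5 were lower in vri679 at ZT14. Of 6 photoreceptor markers 2 were higher. Lower ones were 2 of 6 fat body markers, 3 of 5 muscle markers and 1 of 4 hemocyte markers. Sums over each whole list, called or not, are given for vri679 ZT14 against wild-type ZT14. Glial markers summed to 871 and 905 FPKM against 1560 and 1510, and photoreceptor markers to 34200 and 32700 against 21800 and 18600. For fat body they were 2790 and 1830 against 7580 and 3680, and for muscle 2840 and 2480 against 4630 and 5100. The fat body sums were mostly Yp1, Yp2 and Yp3. Hemocyte markers summed to 33.1 and 32.1 against 45.5 and 45.3. Markers of a list did not all move alike. The glial gene wrapper read 25.6 and 23.4 against 22.9 and 23.1, and the photoreceptor gene ninaC 1100 and 1190 against 1660 and 1460. The photoreceptor sums were mostly ninaE (19600 and 20200 against 12700 and 10300) and Arr2 (11400 and 9500 against 5430 and 5000). Levels of trp, inaD and norpA overlapped between genotypes, and the median difference of that list was 0.1. The fat body marker CG3523 (77.2 and 92.4 against 98.6 and 85.6) and the muscle marker Act88F (6.2 and 4.65 against 3.87 and 4.82) overlapped too. Of these 13 calls only Lsp2 of the fat body (adjusted p up to 0.0184) and Mhc of muscle (adjusted p up to 0.0486) held with any library left out. The other 11 were lost without at least 1 wild-type ZT14 library (limma adjusted p up to 0.233). None of these markers was at 0 in any library. Averaged over both times, the muscle marker Act88F was called higher in vri679 (0.67, SE 0.17, limma adjusted p = 0.0417). Mhc was called lower (−0.52, SE 0.12, limma adjusted p = 0.0289), with 14.1% of all genes called. Each of these averaged calls was lost in 6 of the 8 fits that left out a library. Mushroom body markers summed to 105 and 158 FPKM in vri679 ZT14 and 122 to 129 elsewhere. The sum was lowest in replicate 1 of vri679 ZT14, though ey and prt were not low in it. There ey read 17.5 and prt 10.4 FPKM, against 14.0 to 16.7 and 7.93 to 10.1 in the other groups. The part of these marker differences in the receptor values was not tested.

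For the 4 receptors with the smallest adjusted p in any comparison, the 3 tested genes most alike were found by Pearson's r of log2 levels over the 8 libraries, as a description without a test. 5-HT2A was most like Pfk (r = 0.979), the phosphofructokinase gene, Mgat1 (0.972) and CG14223 (0.968). DopEcR was most like CG32479 (0.951), Ino80 (0.948), a chromatin remodeller, and CG14589 (0.945). 5-HT2B was most like CG42261, rhea, the talin gene, and Toll-7 (0.995 each), all of which were low in replicate 1 of vri679 ZT14, such as rhea at 17 FPKM there against 30.2 to 38.4 elsewhere. Oamb was most like CG8398 (0.972), Atg1 (0.970), an autophagy kinase, and the neuropeptide receptor gene Dh31-R (0.968). All these points share the same 8 libraries.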

How the data were processed

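The authors deposited, for each of 8 libraries, a table of RefSeq transcripts with FPKM and, per the file headers, a coverage signal, which served only to estimate read depth. Per the submitters' processing notes, reads were handled with STAR 2.6.1d and StringTie on dm6; the strand setting is not given in the sources used here. Per the labels' protocols, libraries were stranded, from 1 µg RNA, read as 75 nt single ends, 4 to a run. Exons of the 10 genes overlap no other gene in Ensembl release 115, whose spans match the tables for all 10.

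FPKM were summed per gene and put on a common scale by median-of-ratios factors (0.968 to 1.038, from 12078 genes). The 10122 genes that reached 1 FPKM in 2 or more libraries were tested with limma 3.58.1 in R 4.3.3 (with statmod 1.5.0), with 4 group means on log2(scaled FPKM + 0.5), eBayes with trend and robust options, Benjamini-Hochberg adjusted per comparison at 0.05. The fit was tested on simulated data. It gives all groups the same spread per gene, though vri679 ZT14 replicates differed most (median absolute log2 difference 0.32, elsewhere 0.10 to 0.13). Named were all 10 genes, the called or most abundant start sites and transcripts, up to 4 called genes per pathway list and comparison, and the most alike genes. Members and lists were chosen with earlier results of these data known. The alternatives changed the pseudocount, filter, scaling, eBayes options, groups fitted, replicate block, features and libraries; transcripts matched Ensembl for 35 of 35. Intervals are 95% intervals of the fit. No sequence is shown.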

Additional observations from a re-analysis of the deposited data

Results flagged for a closer look

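The effect of genotype on these genes of the lists differed between ZT2 and ZT14 by the test of genotype by time (limma, Benjamini-Hochberg adjusted over 10122 genes). None was a receptor gene. Of the monoamine genes, Dat (−1.36, SE 0.22, adjusted p = 0.0156) and Pu (−1.05, SE 0.24, adjusted p = 0.0464) were lower. Pu had 757 and 760 FPKM in wild-type ZT2 and 635 and 706 in vri679 ZT2. Among markers, the photoreceptor arrestin gene Arr2 was higher (1.10, SE 0.26, adjusted p = 0.0497), and the fat body storage protein gene Lsp2 (−7.88, SE 0.74, adjusted p = 0.00318) and the muscle genes Mhc (−1.15, SE 0.23, adjusted p = 0.0291) and Mlc2 (−1.06, SE 0.23, adjusted p = 0.0352) were lower. The Lsp2 call held with any library left out (adjusted p up to 0.0225). That of Dat was lost without either wild-type ZT2 library, replicate 2 of wild-type ZT14 or replicate 1 of vri679 ZT2 (adjusted p up to 0.0819), and those of the other 4 when any 1 library outside the vri679 ZT14 pair was left out (adjusted p up to 0.221).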

How the results depend on the processing

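The count of 0 receptor genes called held in all 6 comparisons under pseudocounts of 0.1 and 1, a filter of 5 FPKM or none, no rescaling, equal totals, quantile normalization, eBayes without its options, only the groups compared, and the replicate block. With 1 library left out, with or without removal of the length trend, it ranged from 0 to 5 (genotype at ZT14), 0 to 1 (averaged over times), 0 to 3 (time in vri679) and 0 to 2 (genotype by time), and was 0 for genotype at ZT2 and time in wild type. With the length trend removed and all libraries kept it was 2 at ZT14, 1 for time in vri679 and 1 for genotype by time. Correlations of replicate deviations between groups ran from −0.143, between wild-type ZT2 and wild-type ZT14, to 0.27, between wild-type ZT2 and vri679 ZT2. Whether libraries of the same replicate number were handled together is not stated in the labels and was not tested. The replicate block left 0 receptor genes called and moved the calls over all genes from 2260 to 2263 at ZT14 and from 292 to 322 at ZT2.

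Differences near 0 changed sign. At ZT14, removal of the length trend gave 0.11 for 5-HT1B, 0.18 for Dop1R1 and 0.28 for Dop2R, and Dop2R was 0.05 without rescaling and 0.07 with quantile normalization. Over the fits that left out a library, the ZT14 difference ranged from −0.57 to 0.02 (5-HT1A), −0.36 to 0.14 (5-HT1B), −0.54 to 0.03 (5-HT7), −0.43 to 0.10 (Dop1R1), −0.07 to 0.38 (Dop1R2), −0.26 to 0.24 (Dop2R) and −0.48 to 0.00 (Oamb), and that of Dop1R1 at ZT2 from −0.10 to 0.32. These signs turned without a vri679 library; no other cause was tested. All genes called ranged from 81 to 615 (genotype at ZT2), 584 to 5196 (ZT14), 489 to 4085 (averaged), 146 to 1455 (time in wild type), 176 to 4602 (time in vri679) and 249 to 4187 (genotype by time) over the same fits, in which a lone library is assumed to vary like the other groups. With only the groups compared they were 447, 859, 1608 and 216 for genotype at ZT2 and ZT14 and time in wild type and vri679. With the 5 FPKM filter 172 were called for genotype at ZT2, and with the length trend removed 490 for genotype at ZT2, 1115 for time in wild type, 1785 for time in vri679 and 1521 for genotype by time. Calls of the other list genes were lost as follows: TyrRII at ZT14 with no filter, no rescaling, equal totals, quantile normalization, the replicate block and only the groups compared, and in wild type with equal totals; Gprk1 at ZT14 with no filter, equal totals and only the groups compared, and on average with no filter, equal totals and eBayes without its options; ple at ZT14 with equal totals and only the groups compared; in wild type, t with equal totals and e with no filter; t, ple, Dat and e between times in vri679 with only the groups compared; and Pu for genotype by time with no filter. The order of levels kept 8 of 9 separated pairs in every setting run (pseudocounts and libraries left out). With 2 libraries a group, 95% intervals reached down to 0.54-fold between single groups and 0.47-fold for genotype by time. What depth adds to their width was not tested; estimated reads per receptor gene and library were 612 or more.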
